A study of Mus musculus with 4 samples.

Results

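The genes described here set how much pyruvate enters mitochondria and how much of it becomes acetyl-CoA. They are the pyruvate dehydrogenase (PDH) kinases Pdk1, Pdk2, Pdk3 and Pdk4, the PDH phosphatases Pdp1 and Pdp2, the E1 subunits Pdha1 and Pdhb, and the mitochondrial pyruvate carrier subunits Mpc1 and Mpc2. They were taken by name with no threshold on a measured value, and all 10 were found among the 22079 genes of the deposited table. The libraries, 4 in all, were made for mRNA sequencing of primary hepatocytes, the parenchymal cells that carry out most liver metabolism, from C57BL/6 males of 8 weeks. WT (wild type) and KO (Prom1-/-, without the membrane glycoprotein gene Prom1; the labels name no allele and no restriction to a cell type) had 2 biological replicates each. All cultures first attached for 4 hours with serum and 10 nM dexamethasone, a synthetic glucocorticoid, and then stayed in serum-free medium overnight, so both genotypes share these conditions. The comparison asks how loss of Prom1 alters hepatocyte transcripts without serum.

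Pyruvate made in the cytosol crosses the inner mitochondrial membrane through a carrier built of Mpc1 and Mpc2. In the matrix the PDH complex converts it irreversibly to acetyl-CoA, which commits its carbon to oxidation or to lipid synthesis. PDH kinases phosphorylate the alpha subunit of the E1 enzyme and switch the complex off, and PDH phosphatases remove the phosphate and switch it on. In the liver this switch separates pyruvate oxidation in the fed state from pyruvate carboxylation toward glucose in fasting, when the kinases are more active. Kinase protein activity also depends on acetyl-CoA, NADH and pyruvate, and none of these was measured here.

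The unit of the values was FPKM, in which fragments are scaled to the length of the transcript and to the depth of the library, so levels can be compared between genes. Differences are KO minus WT on the scale log2(FPKM + 1), tested with limma, a linear model that shares the estimate of spread over all genes. The 10407 genes that averaged 1 FPKM or more over the 4 libraries were tested together. At an adjusted p under 0.05, limma called 0 of them (0%), and 759 (7.29%) had an unadjusted p under 0.05, 436 lower in KO (4.19%) and 323 higher (3.1%). With 2 libraries against 2 an exact permutation test cannot give a two-sided p below 0.333. The level of Prom1 itself was 0.571 and 1.22 FPKM in the WT libraries and 0.0458 FPKM in KO 2, and the table lists it at 0 in KO 1. The libraries were estimated to hold 15100000 to 17300000 fragments, so that about 27.3 to 31.2 fragments stand behind 1 FPKM of a transcript of 2 kb. Of 10 hepatocyte markers 9 were in the table, and their summed level without albumin ran from 15925 to 19488 FPKM in WT and from 15593 to 17955 FPKM in KO. That sum is carried by a few very abundant transcripts, and single markers differed more. Hnf4a, a hepatocyte transcription factor named here after its values were seen, stood at 90.4 and 95.8 FPKM in WT and at 64.9 and 59.5 FPKM in KO (log2 difference -0.58; limma adjusted p = 0.47). Fgb (-0.54) and Cps1 (-0.61) had lower means in KO with overlapping libraries. The libraries of Ahsg (-0.23), Ttr (-0.04), Apoa1 (-0.02), Apoa2 (0.05) and Serpina1a (0.11) also overlapped, with differences on both sides of 0. The part of these markers in the results below was not tested. The albumin gene Alb was listed at 0 in WT 2 only, the library in which the other hepatocyte markers summed highest. Of the 10 genes described, 9 passed the expression filter and Pdk3 did not.

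The promoters of the 3 kinase genes with a lower level in KO are shown because these members share the lower level. RefSeq (build GRCm38.p6) gave a window for 9 of the 10 genes. Each sequence starts 250 bases before the RefSeq transcription start and runs 5′ to 3′ on the gene's strand up to the start or to the first exonic base in GENCODE, whichever comes first. Capitals mark matches, on either strand, to ACGTG (the core of a hypoxia-inducible factor site), CCAAT (bound by the factor NF-Y) or GGGCGG (the GC box of SP1).
Pdk1, chr2:71872974-71873223, plus strand: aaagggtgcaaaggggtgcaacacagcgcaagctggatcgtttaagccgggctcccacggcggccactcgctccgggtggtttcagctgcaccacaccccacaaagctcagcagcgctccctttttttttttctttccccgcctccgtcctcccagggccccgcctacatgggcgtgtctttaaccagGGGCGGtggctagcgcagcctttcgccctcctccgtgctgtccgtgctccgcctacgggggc
Pdk2, chr11:95041372-95041621, minus strand: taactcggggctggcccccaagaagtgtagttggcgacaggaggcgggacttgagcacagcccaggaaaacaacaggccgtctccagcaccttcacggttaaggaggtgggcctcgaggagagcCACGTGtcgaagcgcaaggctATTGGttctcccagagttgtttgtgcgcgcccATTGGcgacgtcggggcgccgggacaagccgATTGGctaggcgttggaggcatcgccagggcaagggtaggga
Pdk4, chr6:5496310-5496528, minus strand: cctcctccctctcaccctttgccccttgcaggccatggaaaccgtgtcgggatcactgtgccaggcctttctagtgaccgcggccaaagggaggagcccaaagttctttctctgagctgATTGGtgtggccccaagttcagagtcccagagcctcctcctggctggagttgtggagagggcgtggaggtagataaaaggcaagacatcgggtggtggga

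The kinase promoters differed in what these letters showed. Pdk2 held the palindrome CACGTG, which contains ACGTG on both strands, and 3 CCAAT boxes in reverse orientation. Pdk1 held a single GC box and Pdk4 a single CCAAT box. Over all 32851 RefSeq windows of 250 bases, 16.6% held ACGTG, 33.8% held CCAAT and 32.7% held GGGCGG. Among the 9 members with a window these were held by 4 (Pdk2, Pdk3, Pdp2 and Pdhb), 7 and 6. These counts use the full 250 bases, exonic bases included. The window of Mpc2 begins in an exon, and the Pdk3 match to ACGTG runs into one. Some genes have several windows among the 32851, while each of these members was given 1. ACGTG had no match in the windows of Pdk1 and Pdk4. The other form of that core, GCGTG, was not counted in any window, and the printed sequences of Pdk1 and Pdk4 both hold it. Whether a match in any window has a part in the levels was not tested, and sequence outside the windows was not searched. The letters GTAAACA (FOXO factors, 3.17% of all windows), AAGGTCA (estrogen-related receptors, 4.08%) and TGACGTCA (cAMP response element, 1.55%) matched in none of the 9 windows on either strand. The full windows of 250 bases of Pdk1, Pdk2 and Pdk4 had a GC content of 64.0%, 62.4% and 58.8%, against a median of 52.4% over all windows.

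Of the kinases, Pdk1, Pdk2 and Pdk4 each stood at about the same distance below WT in the KO libraries, a log2 difference of -0.79, and Pdk3 was barely expressed. The shared value depends on the pseudocount of 1 FPKM. In the order Pdk1, Pdk2 and Pdk4, the differences were -0.87, -0.83 and -0.92 with 0.1 FPKM. With 5 FPKM they were -0.56, -0.65 and -0.48. For these 3 genes the KO libraries were both lower than either WT library, as was the case for 19.8% of all genes tested (38.1% of genes had libraries apart in either direction). All 3 had an unadjusted p under 0.05, against 4.19% of all genes in that direction, and none passed after adjustment over all genes. These genes were chosen with earlier results of these data known.

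Pdk2, the most widely expressed PDH kinase, had the highest level of the family in every library. It lies on chromosome 11 (95026258 to 95041354 in mm10, minus strand). Pdk2 stood at 22.5 and 24.3 FPKM in WT and at 11 and 15.5 FPKM in KO. Both WT libraries were close together and both KO libraries were clearly below them, with KO 1 the lower. The means were 23.4 ± 1.27 and 13.2 ± 3.15 FPKM (SD, n = 2), so the KO level was 56.7% of WT. The log2 difference was -0.79 (SE 0.17, 95% interval -1.2 to -0.38), with a limma p of 0.0034 unadjusted and 0.518 adjusted. An antisense gene model, Gm11513, overlaps Pdk2 on the opposite strand and has no level under that name in the deposited table. Without knowing whether counting used the strand, reads of either cannot be told apart here.

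Pdk1, a kinase known as a target of hypoxia-inducible factor in many cell types, lies on chromosome 2 (71873224 to 71903858, plus strand). It stood at 12.2 and 11.7 FPKM in WT and at 7.37 and 5.69 FPKM in KO. The WT libraries nearly coincided, and the KO libraries were spread more widely below them. With means of 11.9 ± 0.414 and 6.53 ± 1.19 FPKM (SD, n = 2), the KO level was 54.7% of WT. The log2 difference was -0.79 (SE 0.15, 95% interval -1.15 to -0.43), with a limma p of 0.00174 unadjusted and 0.487 adjusted. By unadjusted p, Pdk1 ranked 35 and Pdk2 ranked 67 of the 10407 genes tested.

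Pdk4, the kinase gene best known for its induction in fasting by glucocorticoids, FOXO factors and PPAR-alpha, lies on chromosome 6 (5483351 to 5496309, minus strand). It stood at 5.32 and 9.33 FPKM in WT and at 3.6 and 3.78 FPKM in KO. Here the KO libraries agreed closely and the WT libraries did not, WT 2 being far higher than WT 1. The KO level was 50.4% of WT by means, 7.32 ± 2.84 and 3.69 ± 0.129 FPKM (SD, n = 2). The log2 difference was -0.79 (SE 0.24, 95% interval -1.38 to -0.19), with a limma p of 0.018 unadjusted and 0.586 adjusted. Without WT 2 it was -0.43 and without WT 1 it was -1.14, so its size moved most with the WT library left out. The gap between the WT libraries was 0.71 on the log2 scale, almost as large as the difference between genotypes, while for Pdk1 and Pdk2 the gaps within a genotype were at most 0.32 and 0.46.

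Pdk3, a kinase most studied outside the liver, lies on the X chromosome (93764607 to 93832201, minus strand). Pdk3 stood at 0.0964 and 0.223 FPKM in WT and at 0.172 and 0.194 FPKM in KO. All libraries were far below 1 FPKM and the genotypes overlapped. Read from the same model fitted to 15152 genes without the expression filter, its log2 difference was 0.03 (95% interval -0.16 to 0.22), on a scale that compresses such low values. No change in Pdk3 could be detected at this depth.

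**Figure D1:**
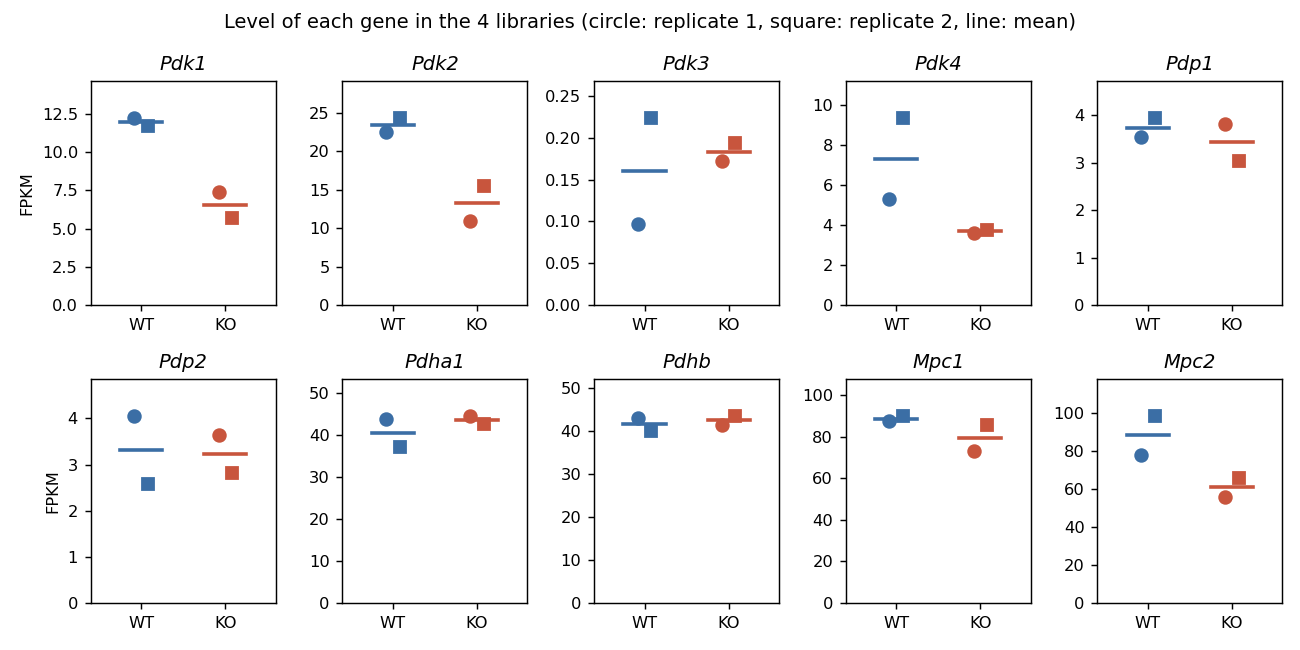
Level of each of the 10 genes in FPKM (y axis, from 0, its scale differing between panels) in the WT and KO libraries (circle, replicate 1; square, replicate 2; line, mean of 2). The KO points of Pdk1, Pdk2, Pdk4 and Mpc2 lie clearly below the WT points, while those of Pdp1, Pdp2, Pdha1 and Pdhb overlap them.

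Added together, the 4 kinase transcripts stood at 40.1 and 45.5 FPKM in WT and at 22.1 and 25.1 FPKM in KO. The summed kinase level in KO was 55.2% of WT (42.8 ± 3.78 and 23.6 ± 2.11 FPKM, SD, n = 2), and the genotypes did not overlap. The makeup of the sum was much alike in both genotypes. Pdk2 gave 53.4% to 56% of it in WT and 49.7% to 61.6% in KO. Pdk1 gave 25.6% to 30.5% in WT and 22.6% to 33.3% in KO, and Pdk4 gave 13.3% to 20.5% and 15% to 16.2%. The shares of these 3 kinases overlapped between genotypes, and the order Pdk2, Pdk1, Pdk4 held in all 4 libraries. Pdk3 gave under 1% in every library, 0.24% and 0.491% in WT and 0.775% and 0.772% in KO.

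**Figure D2:**
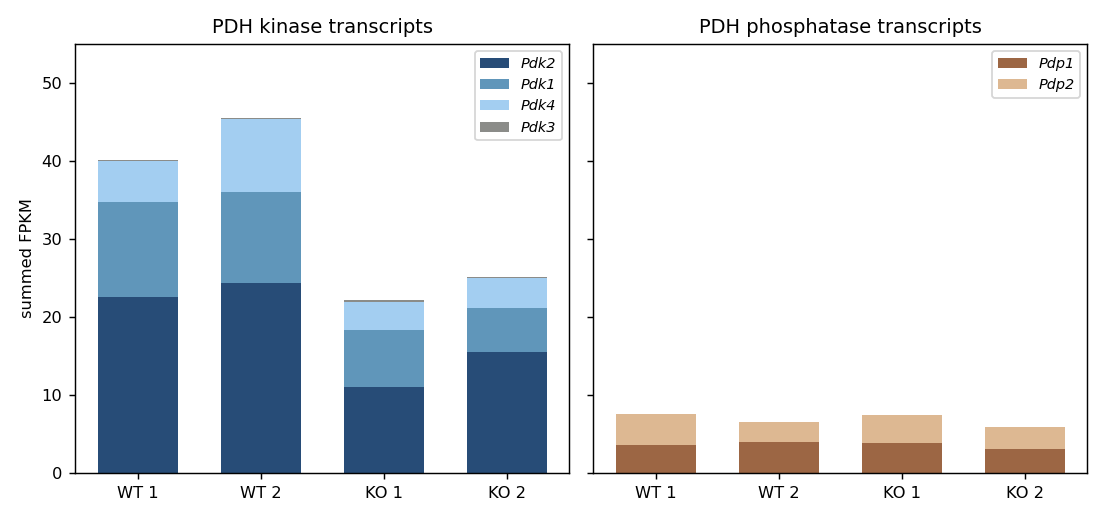
Summed FPKM (y axis) of the kinase transcripts (left) and the phosphatase transcripts (right) in each library, stacked by gene. The kinase bars reach 40.1 and 45.5 FPKM in WT against 22.1 and 25.1 FPKM in KO, while the phosphatase bars lie between 5.86 and 7.59 FPKM in all 4 libraries.

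The phosphatase genes, which oppose the kinases, did not separate the genotypes. Pdp1, the calcium-stimulated phosphatase (chromosome 4, 11958184 to 11966452, minus strand), stood at 3.54 and 3.93 FPKM in WT and at 3.81 and 3.04 FPKM in KO. KO 1 lay between the WT libraries and KO 2 below them. Its log2 difference was -0.1 (SE 0.16, 95% interval -0.5 to 0.29; limma adjusted p = 0.919). Pdp2, the isoform linked to insulin and feeding (chromosome 8, 104591451 to 104599026, plus strand), stood at 4.05 and 2.58 FPKM in WT and at 3.63 and 2.82 FPKM in KO. Both KO libraries lay inside the WT range, and the log2 difference was -0.02 (SE 0.22, 95% interval -0.55 to 0.52; limma adjusted p = 0.993). The lower bounds of these intervals, -0.5 and -0.55, still allow a sizeable decrease, so the phosphatases were not shown to be equal between genotypes. For Pdp2, which has 1 annotated transcript, about 226 to 385 fragments stood behind each value, a counting error of 5.1% to 6.7%, which is smaller than the gap between the WT replicates.

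The kinase sum per FPKM of phosphatase was 5.28 and 6.98 in WT and 2.98 and 4.29 in KO. Per length, kinase transcripts were more abundant than phosphatase transcripts in every library, by less in both KO libraries than in either WT library. The difference between the kinase and phosphatase changes was not tested, because the genes were chosen with results of these data known.

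The target of both enzymes is the E1 component, and its transcripts did not separate the genotypes, though they were not shown to be equal between them. Pdha1, the alpha subunit that carries the phosphorylated serines, lies on the X chromosome (160122209 to 160138413, minus strand). It stood at 43.8 and 37.1 FPKM in WT and at 44.4 and 42.6 FPKM in KO, so the genotypes overlapped. Its log2 difference was 0.11 (SE 0.12, 95% interval -0.17 to 0.39; limma adjusted p = 0.853). Pdhb, the beta subunit (chromosome 14, 8165996 to 8173025, minus strand), stood at 42.9 and 40 FPKM in WT and at 41.4 and 43.4 FPKM in KO. Its log2 difference was 0.03 (SE 0.1, 95% interval -0.21 to 0.27; limma adjusted p = 0.963). The E1 and kinase differences were not tested against each other, and the interval of Pdhb overlaps that of Pdk4, which reaches up to -0.19. The alpha and beta subunits form a heterotetramer with equal numbers of each, and their transcripts were nearly equal too, with 0.926 to 1.07 FPKM of Pdha1 per FPKM of Pdhb over the 4 libraries. Per 100 FPKM of Pdha1 there were 91.7 and 123 FPKM of kinase transcripts in WT and 49.9 and 58.9 FPKM in KO. Pdha1 overlaps Map3k15 on the opposite strand, which stood at 0.139 to 0.243 FPKM, far below Pdha1.

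The carrier subunits were the most abundant of the 10 transcripts, and Mpc2 was lower in KO. Mpc2 (chromosome 1, 165460637 to 165481214, plus strand) stood at 78 and 98.2 FPKM in WT and at 55.9 and 65.5 FPKM in KO. Both KO libraries were below both WT libraries, with a fairly wide gap within each genotype. The KO level was 68.9% of WT (88.1 ± 14.3 and 60.7 ± 6.78 FPKM, SD, n = 2), and the log2 difference was -0.53 (SE 0.15, 95% interval -0.89 to -0.16), with a limma p of 0.0122 unadjusted and 0.562 adjusted. Without WT 2 the log2 difference was -0.36.

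Mpc1 (chromosome 17, 8282904 to 8297661, plus strand), the obligate partner of Mpc2, stood at 87.5 and 90 FPKM in WT and at 73.4 and 85.9 FPKM in KO. The KO libraries lay below the WT libraries, KO 2 only just. The log2 difference was -0.16 (SE 0.11, 95% interval -0.44 to 0.12; limma adjusted p = 0.802), and it was -0.05 without KO 1. Both proteins are needed for a working carrier. Their transcripts stood at 0.892 and 1.09 FPKM of Mpc2 per FPKM of Mpc1 in WT and at 0.762 and 0.763 in KO. Gene models overlap both, 4930506C21Rik on the opposite strand of Mpc1 and Gm37860 on the same strand of Mpc2, and Mpc1 has a processed pseudogene, so these values are uncertain to that extent.

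**Figure D3:**
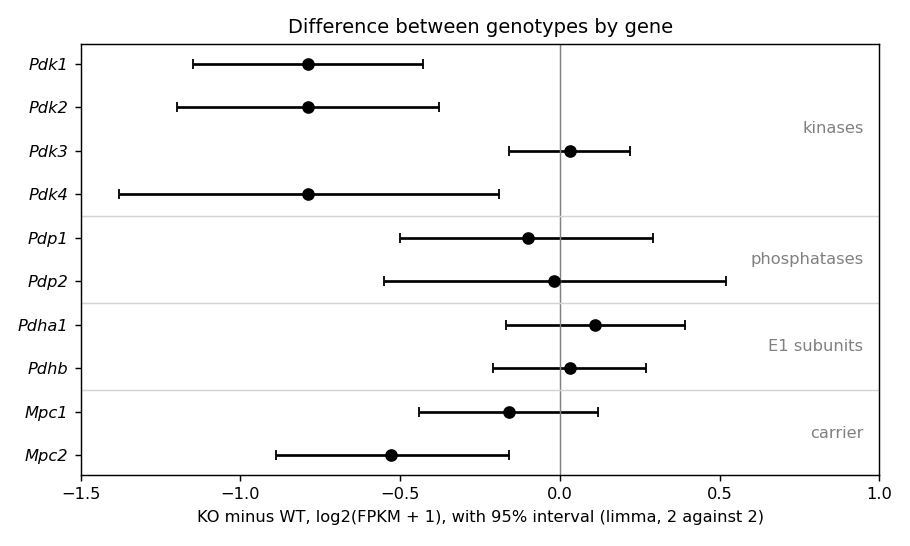
KO minus WT difference in log2(FPKM + 1) (x axis) of the 10 genes, grouped by role, with 95% intervals from limma on 2 libraries against 2. The intervals of Pdk1, Pdk2, Pdk4 and Mpc2 lie below 0, and those of the other 6 genes include it; none passed adjustment over all genes.

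The mean was lower in KO for 7 and higher for 2 of the 9 members tested, and their median log2 difference was -0.16 against -0.001 over all genes tested. The KO libraries were both lower than either WT library for 5 members, Pdk1, Pdk2, Pdk4, Mpc1 and Mpc2, and both higher for 0, where the shares over all genes were 19.8% and 18.3%. An unadjusted p under 0.05 was reached by 4 members, all lower in KO, against 4.19% of all genes in that direction. With any 1 library left out, the log2 difference ran from -0.95 to -0.63 for Pdk1 and from -1.02 to -0.56 for Pdk2. It ran from -1.14 to -0.43 for Pdk4 and from -0.69 to -0.36 for Mpc2, and for both it was smallest in size without WT 2. The labels call the replicates biological without saying which animals were used, and p-values measure the spread between these 4 libraries only.

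**Figure D4:**
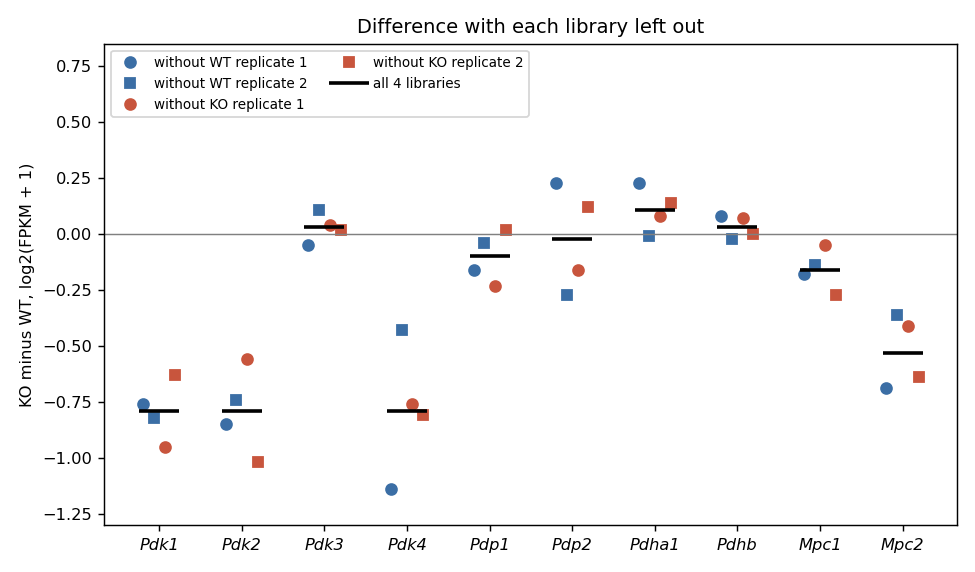
KO minus WT difference in log2(FPKM + 1) (y axis) of each gene with 1 library left out at a time (points) and with all 4 libraries (black bars). Pdk1, Pdk2, Pdk4 and Mpc2 stay below 0 in every case, Pdk4 ranging from -1.14 to -0.43, while Pdk3, the phosphatases and the E1 subunits lie on either side of 0.

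The libraries also differed in markers of other liver cells, which bulk RNA cannot separate: fewer cells of a type and less RNA per cell look alike. The summed level of 10 sinusoidal endothelial markers was 58.9 and 56.6 FPKM in WT, 82.9 FPKM in KO 1 and 43.6 FPKM in KO 2. That of 10 stellate cell and fibroblast markers was 15.2 and 17.1 FPKM in WT, 26 FPKM in KO 1 and 11.7 FPKM in KO 2. For both lists KO 1 was the highest and KO 2 the lowest library, and their part in the results was not tested. Single markers, named after their values were seen, did not all follow these sums. Dcn, the largest part of the stellate sum, stood at 8.31 and 8.39 FPKM in WT, 17.5 FPKM in KO 1 and 7.02 FPKM in KO 2. Reln stood at 3.47 and 5.65 FPKM in WT and at 2.79 and 2.33 FPKM in KO. The endothelial genes Pecam1 and Cdh5 were highest in WT 2, at 7.46 and 8.6 FPKM. The summed level of 10 Kupffer cell and macrophage markers, of which Cd68 made up most, stood at 377 and 372 FPKM in WT and at 418 and 491 FPKM in KO, higher in both KO libraries. Named after their values were seen, the Kupffer cell genes Marco and Cd5l differed more than this sum: Marco stood at 2.54 and 3.14 FPKM in WT and at 6.28 and 5.7 FPKM in KO (log2 difference 0.87), and Cd5l at 2.81 and 2.28 FPKM in WT and at 4.82 and 4.62 FPKM in KO (0.7). The complement genes C1qa, C1qb and C1qc differed by -0.14, -0.04 and -0.15, and the part of these markers in the results was not tested. The 8 cholangiocyte markers summed to 37.5 to 41.6 FPKM in WT and 28.3 to 41.6 FPKM in KO. Of 10 lymphocyte and neutrophil markers, 6 were listed at 0 in all libraries, among them Cd3g, Cd79a and Ly6g, and the sum stayed under 1 FPKM.

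The other parts of the PDH complex showed small differences. They were Dlat (the E2 core), Pdhx (the protein that holds E3), Dld (E3) and Pdpr (a regulator of the phosphatase). Of these 4 genes, 0 had an unadjusted p under 0.05. The share over all genes was 7.29%, so that count does not set the list apart. The median log2 difference of the 4 was -0.07. Dlat stood at 17.1 and 15 FPKM in WT and at 14.2 and 13.7 FPKM in KO, which gives a log2 difference of -0.19, or -0.1 without WT 1. Pdhx differed by -0.18, which was -0.03 without WT 1, Dld by 0.1, which was 0.02 without KO 2, and Pdpr by 0.03, which was -0.18 without KO 1. The related oxoacid dehydrogenases share the E3 enzyme or the design of the complex. An unadjusted p under 0.05 was reached by 1 of 8 genes in their list, against 7.29% of all genes. That gene was Bckdhb, the E1 beta subunit of branched-chain oxoacid dehydrogenase, at 20.6 and 19.6 FPKM in WT and at 26.4 and 28.7 FPKM in KO (log2 difference 0.44; limma adjusted p = 0.526). Its partner Bckdha differed by -0.24, and by -0.08 without KO 1, so the E1 subunits of that complex had opposite signs. Ogdh, the E1 enzyme of oxoglutarate dehydrogenase, differed by -0.19, and by -0.11 without WT 1, and Ppm1k, the phosphatase of the branched-chain complex, by -0.17, which was 0 without WT 1. Bckdk, named outside the rule after its values were seen as the kinase of that complex and the closest relative of the PDH kinases in the list, stood at 7.65 and 5.56 FPKM in WT and at 6.1 and 5.8 FPKM in KO, for a log2 difference of -0.12 with overlapping libraries.

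The list of genes that make or use pyruvate outside the complex had log2 differences from -1.24 to 0.94. It also holds Pck1 and Pck2, which neither make nor use pyruvate, and without them the range was -1.24 to 0.63. Of the 16 genes in the list, 13 were tested. An unadjusted p under 0.05 was reached by 7, 5 lower and 2 higher in KO, against 7.29%, 4.19% and 3.1% of all genes. Both Pck1 and Pck2 are among these 7. The median log2 difference of the 13 was -0.16. The lower ones included Pkm (-1.24) and Sds (-1.12), which make pyruvate from phosphoenolpyruvate and serine, and Pck1 (-1.18), the cytosolic phosphoenolpyruvate carboxykinase. Pklr, the liver pyruvate kinase, which catalyses the same step as Pkm and is named outside the rule after its values were seen, was the more abundant of the pair and went the other way. It stood at 69.7 and 80.4 FPKM in WT and at 110 and 123 FPKM in KO (log2 difference 0.63; limma adjusted p = 0.487), against 26.4 and 23.2 FPKM and 13.4 and 7.25 FPKM for Pkm. Pck2, the mitochondrial carboxykinase, stood at 13.5 and 8.8 FPKM in WT and at 22.2 and 21.5 FPKM in KO, for a log2 difference of 0.94 (limma adjusted p = 0.518). Pyruvate carboxylase, Pcx, which competes with PDH for mitochondrial pyruvate, was named outside the rule after its values were seen. It stood at 72.3 and 71.1 FPKM in WT and at 61 and 64 FPKM in KO, for a log2 difference of -0.2 (limma adjusted p = 0.707).

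The list of monocarboxylate transporters, which carry pyruvate and lactate across the plasma membrane, also held a chaperone of some of them. Of its 5 tested genes, 2 had an unadjusted p under 0.05, both lower in KO. Over all genes, 4.19% had such a p and were lower in KO. Slc16a3, an exporter of lactate, stood at 6.22 and 4.71 FPKM in WT and at 2.35 and 0.457 FPKM in KO. KO 2 was by far the lowest, and the log2 difference of -1.54 was -0.94 without KO 2 (limma adjusted p = 0.548 with all libraries). Bsg, which brings some of these transporters to the membrane, stood at 525 and 582 FPKM in WT and at 329 and 399 FPKM in KO (log2 difference -0.61, limma adjusted p = 0.525). Slc16a7 differed by -0.35, and by -0.15 without WT 2, and Slc16a11 by 0.27, and by 0.15 without KO 2.

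Downstream of PDH, the 15 tested genes of citrate synthesis and the TCA cycle had log2 differences between -0.3 and 0.2 with a median of -0.08. An unadjusted p under 0.05 was reached by 1 of them, against 7.29% of all genes. The only one with an unadjusted p under 0.05 was Idh2, the NADP-dependent mitochondrial isocitrate dehydrogenase, at 21.5 and 20.6 FPKM in WT and at 16.2 and 17.6 FPKM in KO (-0.3; limma adjusted p = 0.619). The citrate synthase gene Cs, whose product takes up the acetyl-CoA made by PDH, differed by -0.15, and by 0.03 without KO 1. Mdh2 differed by 0.2, and by 0.09 without WT 2, and Suclg1 by 0.18, and by 0.12 without KO 2.

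**Figure D5:**
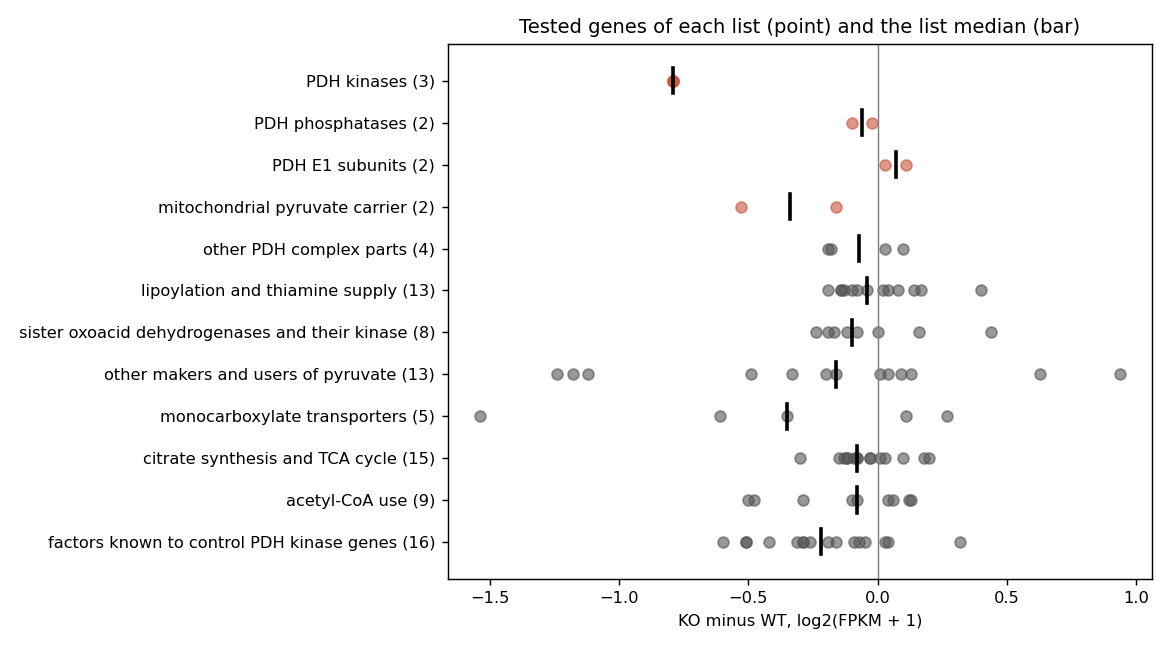
KO minus WT difference in log2(FPKM + 1) (x axis) of each tested gene (points) in the 4 groups of members (red) and 8 related lists (grey), with list medians (black bars) and the number of genes in brackets. The 3 tested kinases coincide at -0.79 with the pseudocount of 1 FPKM used here, and the TCA cycle genes lie between -0.3 and 0.2. The list of makers and users of pyruvate, which also holds Pck1 and Pck2, extends from -1.24 to 0.94.

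Genes for factors known to control PDH kinase transcription were described by counts, with no test of the list. Of 19 such genes 16 were tested, 13 with a lower mean in KO, where 5237 of all 10407 genes had one. An unadjusted p under 0.05 was reached by 6, all lower, against 4.19% of all genes in that direction, and the median log2 difference was -0.22 against -0.001 over all genes. Ppara, the fatty acid-activated receptor that induces Pdk4, stood at 21.4 and 28 FPKM in WT and at 15.2 and 16.4 FPKM in KO, for a log2 difference of -0.6 (limma adjusted p = 0.541). Its partner Rxra differed by -0.42, and by -0.25 without WT 2. Foxo1, which activates Pdk4 in fasting, stood at 5.38 and 5.07 FPKM in WT and at 4.05 and 2.78 FPKM in KO, for a log2 difference of -0.51 that was -0.3 without KO 2. Epas1, which encodes the HIF-2 alpha subunit, stood at 14.7 and 17.2 FPKM in WT and at 12 and 9.87 FPKM in KO, for a log2 difference of -0.51. Named outside the rule after their values were seen, Hif1a, at 21.4 FPKM in both WT libraries and 23.3 and 31.4 FPKM in KO, differed by 0.32 (limma adjusted p = 0.705), and the glucocorticoid receptor gene Nr3c1 differed by -0.05 with overlapping libraries. Transcript levels of such factors do not give their activity.

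The genes whose 4 library values were most like those of Pdk1, among 10156 tested genes with a name, were Acmsd, Arhgap26 and Adgrl4. Likeness was the Euclidean distance between log2(FPKM + 1) values centred on each gene's mean, over 4 libraries. Acmsd, an enzyme of tryptophan breakdown, had a distance of 0.049, with 12.4 and 11.6 FPKM in WT and at 7.2 and 5.86 FPKM in KO, and Arhgap26 and Adgrl4 had distances of 0.076 and 0.11. Nearest to Pdk4 were Ptpn14 (0.0829), the organic anion transporter gene Slc22a7 (0.124) and the glucose-6-phosphate transporter gene Slc37a4 (0.126). Slc37a4 stood at 30.5 and 47.9 FPKM in WT and at 19.6 and 22.7 FPKM in KO, and so shared with Pdk4 the high value in WT 2. With 4 libraries and that many genes, close matches are a description of these values only.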

How the data were processed

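The authors deposited 1 table of gene values per library, read as FPKM from the tools in the submitters' processing notes (STAR 2.5.0, Cufflinks and Cuffdiff 2.2.1, build mm10, with no role or order) and from the values, since no column name states a unit. Which annotation and strand setting they counted with is not given in the sources used here. Of 22079 identifiers, 21984 were matched to symbols of GENCODE release 21 for mouse, and the columns were matched to samples by title. Depth was estimated from the lowest step of FPKM values in 3907 genes with 1 annotated transcript, assuming fragments of 200 bases; whole fragments were not recovered, so no count model was used.

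Values were tested as log2(FPKM + 1), with a pseudocount of 1 FPKM and a filter at a mean of 1 FPKM, in limma 3.58.1 (R 4.3.3; lmFit, eBayes with an intensity trend), two-sided, genotype as the only term, with Benjamini-Hochberg adjustment over all 10407 genes. Fold changes on this scale understate those of low genes. Promoter windows and motif counts were computed from RefSeq sequences. The members and the lists were chosen with earlier results of these data known. Beyond the 10 members, the text names Prom1, up to 4 tested genes per list with the largest absolute difference, and the 3 nearest profiles to Pdk1 and to Pdk4; other names are marked. Some genes that this rule takes are not reported here. A hepatocyte marker and a lipoylation gene of the lists were not matched by symbol.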

Additional observations from a re-analysis of the deposited data

How the results depend on the processing

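Of 116 recomputed member differences, 110 kept their direction and none crossed the adjusted threshold of 0.05 in limma. The 6 with the opposite sign each left out 1 library and concern small differences: the range with a library left out was -0.05 to 0.11 for Pdk3 (-0.05 without WT 1), -0.23 to 0.02 for Pdp1 (0.02 without KO 2), -0.27 to 0.23 for Pdp2 (0.23 without WT 1, 0.12 without KO 2), -0.01 to 0.23 for Pdha1 (-0.01 without WT 2) and -0.02 to 0.08 for Pdhb (-0.02 without WT 2). It was -0.95 to -0.63 for Pdk1, -1.02 to -0.56 for Pdk2, -1.14 to -0.43 for Pdk4, -0.27 to -0.05 for Mpc1 and -0.69 to -0.36 for Mpc2. The number of genes called over the table was 0 in the main comparison and in each alternative with all libraries, and from 0 to 8 with a library left out (8 without WT 1, 5 without KO 1), none of them a member. A pseudocount of 5 FPKM brought Pdk1, Pdk2 and Pdk4 to between -0.65 and -0.48, and one of 0.1 FPKM to between -0.92 and -0.83. Raising the expression filter to 5 FPKM leaves out both phosphatases, and the median member difference was then -0.53.

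The replicate numbers shared by WT and KO were not shown to pair the libraries: deviations of the first replicates correlated at 0.151 over 10407 genes, with only 2 pairs. With the replicate block, 0 genes were called and 1054 had an unadjusted p under 0.05, against 759 without it; the block gave adjusted p-values of 0.181 for Pdk1, 0.181 for Pdk2, 0.289 for Pdk4 and 0.201 for Mpc2, and changed no call. Depth limits Pdk3 most, and 2 libraries a group limit every comparison.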

Other observations

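Genes for cofactor supply to the PDH complex showed small differences. Lipoic acid is attached to the E2 core, and thiamine diphosphate is the cofactor of E1. Of 13 genes for lipoate synthesis, its iron-sulfur cluster supply and thiamine handling, 0 had an unadjusted p under 0.05 in limma. The share over all genes was 7.29%, so that count does not set the list apart. The median log2 difference of the 13 was -0.04. Lipt2, which transfers the octanoyl precursor of lipoate, stood at 1.36 and 1.21 FPKM in WT and at 2.03 and 1.99 FPKM in KO, for a log2 difference of 0.4 with libraries that did not overlap (limma adjusted p = 0.689). Iba57 differed by -0.19, Nfu1 by 0.17 (0.1 without KO 2) and Isca1 by -0.14, and without KO 1 Isca1 differed by 0.05.

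Among genes that use acetyl-CoA, Acot12, a cytosolic acetyl-CoA thioesterase, stood at 22.1 and 21.7 FPKM in WT and at 14.2 and 16.3 FPKM in KO (log2 difference -0.5; limma adjusted p = 0.519). Acat1 differed by 0.13 and by 0 without WT 2.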
